A study of Mus musculus with 5 samples.

Results

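The 10 genes described here are Fos, Fosb, Fosl2, Jun, Junb, Jund, Egr1, Ier2, Atf3 and Dusp1, immediate early genes of the AP-1 and Egr families and their companions. They were found by gene symbol in the feature lists, and all 10 were present, among 32285 features in the T cell libraries and 54987 in the whole-tumor libraries. Their levels were measured in 8 lineage gates, CD8, CD4 and γδ T cells, natural killer (NK) cells, neutrophils, macrophages, fibroblasts and cancer cells, in each of 5 single-cell RNA sequencing libraries. The comparison is between tumors sensitive and resistant to doxorubicin (DOX), an anthracycline.

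All libraries came from female BALB/c mice, 12 weeks old per the labels, that carried tumors of 4T1 cells, an established mouse mammary carcinoma line used as a model of triple negative breast cancer, in the mammary fat pad. The injected line carried the Thy1.1 (CD90.1) marker. The treated mice received 3 intravenous doses of DOX at 5 mg/kg, 3 days apart, and the control mice received saline. A pair of libraries held T cells from DOX sensitive or DOX resistant tumors, enriched by magnetic depletion of other cells and of CD90.1+ cancer cells, each a pool of the T cells of 3 tumors. The other 3 held unsorted cells of tumors labelled control, sensitive and resistant. For the whole-tumor library whose title and sensitivity field read resistant, the source field names a sensitive tumor, and the source field of the saline library does so too, so these libraries are called by their labels. The sensitive-labelled library held 0 CD8 and 0 CD4 gate cells, the resistant-labelled one 8 and 2 and the control-labelled one 6 and 10. The paper reports the largest share of T cells in sensitive tumors, and how this bears on the labels was not tested. Each group had 1 library, so no difference between libraries was tested, and the intervals in brackets (95%) cover counting error only. Both T cell libraries came from treated tumors, with no untreated control.

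Immediate early genes are transcribed within minutes of a signal at the cell surface, without new protein synthesis. Fos and Jun proteins pair to form AP-1, which binds DNA through a basic leucine zipper, and the Jun proteins can pair among themselves, whereas the Fos proteins need a Jun partner. In T cells AP-1 is induced by antigen receptor signaling and acts with NFAT on cytokine genes. The same genes are induced by growth factors, inflammatory signals, heat and by the enzymatic dissociation of tissue, a step that these tumors went through before capture.

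Gene positions below are those of GRCm38. Levels are unique molecular identifiers (UMIs) of a gene summed over the cells of a gate in a library and given per 1000000 UMIs of that sum (CPM). Ratios are those of CPM, sensitive over resistant, with an exact conditional binomial interval. A ratio past 1.5-fold on at least 50 UMIs over both libraries is called higher or lower in the text. The T cell libraries held 3949 sensitive and 6116 resistant barcodes, with medians of 4460 and 3354 UMIs, and the whole-tumor libraries 275 to 501 barcodes with medians of 1438.5 to 2682 UMIs. The median share of mitochondrial UMIs was 2.47% over barcodes of the sensitive and 8.95% over those of the resistant T cell library, and 5.90% and 45.7% of their barcodes exceeded the 10% limit. The kept cells had medians of 2.39% and 4.95%, and the part of this difference in the ratios was not tested beyond the 5% and 20% limits. The T cell libraries shared 31 barcodes, and the whole-tumor libraries shared none. The depletion left other lineages in the T cell libraries, with 1304 and 1555 CD8, 199 and 51 CD4, 61 and 18 γδ, 64 and 35 NK, 136 and 164 neutrophil, 183 and 154 macrophage, 790 and 581 fibroblast and 98 and 125 cancer gate cells in the sensitive and resistant library. Genes not used for gating followed the gates, with S100a8 and S100a9 at 86599 and 102117 CPM together in the neutrophil gate and at 43.0 and 52.9 CPM in the macrophage gate. In the sensitive whole-tumor library the gates other than neutrophils held at most 6 cells each.

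The sequences upstream of the genes are shown because the genes are read out together here and several share one short element. RefSeq promoter entries (GRCm38.p6) were listed for 8 of the 10 genes, and the 250 bases before the start site were searched on both strands. The start site is that of the RefSeq entry, and for Fosb, Fosl2, Junb, Jund, Atf3 and Dusp1 it differs from the start of the gene at the positions given below. The cAMP response element TGACGTCA was found in 1 of the 8, Dusp1, and in 1.55% of all 32851 promoters. Its first 5 letters, TGACG, which the full element also holds, were found in 5 of the 8 (Fos, Fosb, Junb, Atf3 and Dusp1) and in 17.8% of all promoters. The form TGACNTCA, which includes the full element, was found in Jun and Dusp1 and in 7.49% of all. The AP-1 site TGANTCA (6.75% of all) and the CArG box (1.47% of all) matched in none of the 8 windows. Bases farther upstream were not searched, nor were Egr1 and Ier2, which had no entry, so their absence holds for these windows only. The short and the variable forms were searched after the windows had been seen. The 8 windows had a GC content of 47.6% (Jund) to 68.8% (Fosb), and the shares of all promoters were not matched for it. Capitals mark the matched letters, all sequences run 5′ to 3′ on the gene's strand, and the first is the whole 250-base window of Fos (chr12:85473640-85473889, plus strand), whose 2 matches lie 125 and 62 bases before the start.
Fos: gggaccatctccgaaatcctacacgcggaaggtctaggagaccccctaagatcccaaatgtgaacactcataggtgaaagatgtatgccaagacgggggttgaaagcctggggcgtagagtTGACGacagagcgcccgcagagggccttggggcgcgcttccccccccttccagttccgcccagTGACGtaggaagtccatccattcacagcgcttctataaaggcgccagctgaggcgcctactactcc
The windows of 30 bases around the match, or 20 bases where the start site cuts it, were for Dusp1 (chr17:26508597-26508626, minus strand), Jun (chr4:95052249-95052278, minus strand), Fosb (chr7:19310089-19310118, minus strand), Junb (chr8:84978838-84978867, minus strand) and Atf3 (chr1:191183334-191183353, minus strand, matched on the other strand).
Dusp1: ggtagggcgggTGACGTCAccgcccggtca
Jun: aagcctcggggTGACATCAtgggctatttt
Fosb: atggagttgcgggTGACGcaagcgcggggg
Junb: cgcttcctgacagTGACGcgagccgcctcc
Atf3: attaatagcattaCGTCAgc
A match is a description of letters, and no readout of factor binding was part of these data.

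Across gates the 10 genes did not share 1 direction between the sensitive and the resistant T cell library. In the CD4 gate 9 of 10 were higher in the sensitive library, beside 17.9% of all 3416 genes with 50 UMIs, and none was lower (9.57% of all genes). In the γδ gate 5 of the 7 genes with 50 UMIs were higher (21.5% of all genes) and none lower (7.05%). In the macrophage gate none was higher (7.61% of all genes) and 6 of 10 were lower (4.18%). The CD8 gate had 2 of 10 higher (7.26%) and none lower (3.29%), and 0 higher and 1 lower once ratios were divided by the median over all genes, 1.1. The NK gate had 2 of 7 higher (15.2%) and 1 lower (9.13%). The neutrophil gate had 2 of 10 higher (11.3%) and 1 lower (12%). No gene passed 1.5-fold either way in the fibroblast gate (7.65% of all genes higher, 3.09% lower) or the cancer gate (7.23% and 3.41%). The median ratio of the genes was 2.09 in the CD4, 2.23 in the γδ and 0.564 in the macrophage gate, where the medians over all genes were 1.04, 1.08 and 1.03. In the other 5 gates the genes' median lay between 0.916 (cancer) and 1.35 (CD8).

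**Figure D1:**
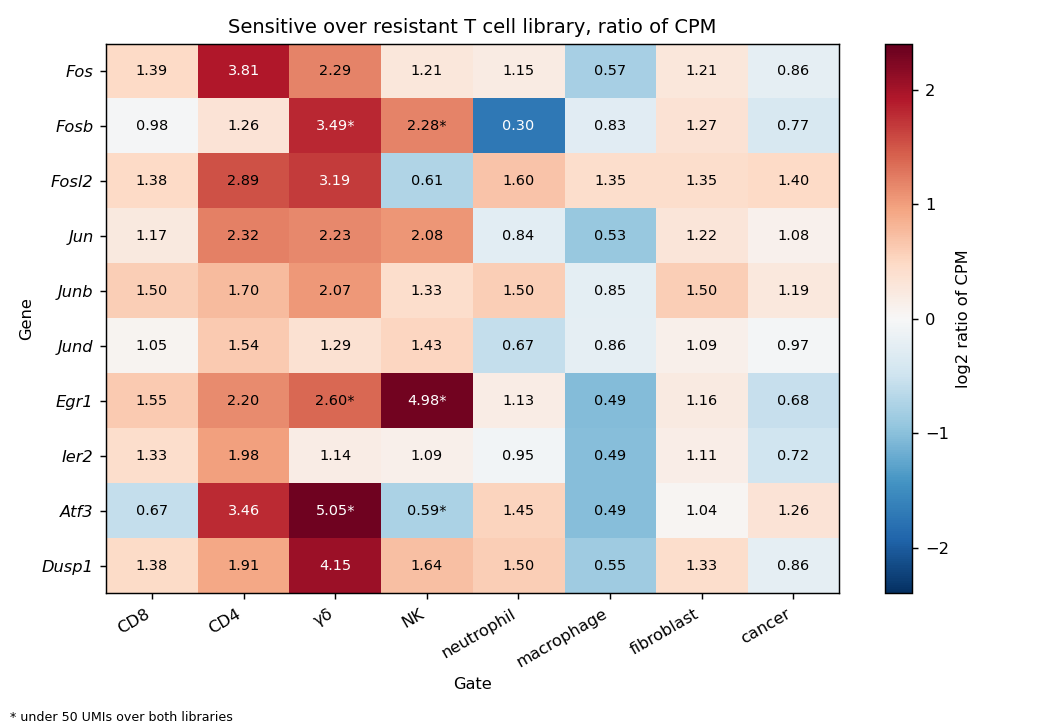
Ratio of CPM between the sensitive and the resistant T cell library for each gene (rows) and gate (columns), colored by its log2 value. The ratio is printed in each square, with an asterisk where the UMIs of both libraries together were under 50. The CD4 and γδ columns are all above 1, and the macrophage column is below 1 except for Fosl2 (1.35).

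Fos (chr12:85473890-85477273, plus strand), the partner of Jun in the classical AP-1 dimer, was highest in fibroblasts of the sensitive library at 2151 CPM (2126 to 2177) and in cancer cells of the resistant library at 1979 CPM (1927 to 2032). It was lowest in CD8 cells of both, at 156 CPM (147 to 166) and 112 CPM (106 to 119). The levels spanned 13.7-fold over the gates of the sensitive library and 17.6-fold over those of the resistant one. In the sensitive library cancer cells and neutrophils, the latter at 1520.5 CPM (1392 to 1658), were neighbors whose intervals overlapped, as were macrophages and γδ cells. In CD4 cells Fos was 782 CPM (731 to 836) in sensitive against 205 CPM (147 to 279.8) in resistant tumors, a ratio of 3.81 (2.77 to 5.37) on 870 and 40 UMIs. In γδ cells it was 884 CPM (765 to 1017) in sensitive against 385 CPM (262 to 547) in resistant tumors, a ratio of 2.29 (1.57 to 3.47). In macrophages the order was the opposite, with 977 CPM (935 to 1021) in sensitive against 1705 CPM (1646 to 1766) in resistant tumors, a ratio of 0.573 (0.542 to 0.606). CD8 cells, NK cells, neutrophils, fibroblasts and cancer cells had ratios from 0.856 (cancer) to 1.39 (CD8), none past 1.5-fold. Over the alternative settings the Fos ratio was 2.95 to 6.34 in CD4, 1.12 to 3.28 in γδ and 0.82 to 3.15 in NK cells, the NK gate reaching its highest value with a 5% mitochondrial limit and lying below 1 by share of cells.

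Fosb (chr7:19302696-19310051, minus strand), a close relative of Fos that is induced with it, was highest in fibroblasts of both libraries, at 433 CPM (421 to 444) and 342 CPM (331 to 354). It was the gene with the lowest ratio of the neutrophil gate, where it was 32.5 CPM (16.2 to 58.2) in sensitive against 107 CPM (80.4 to 140.5) in resistant tumors, or 0.303 (0.143 to 0.587) on 11 and 53 UMIs. In CD4 cells it was the only gene of the 10 not past 1.5-fold, at 1.26 (0.794 to 2.09), an interval that holds 1, but by share of cells after thinning it was 3.38, on 26 of 196 and 2 of 51 cells. In γδ and NK cells it had under 50 UMIs and was not called. Fosl2 (chr5:32135801-32157842, plus strand), which encodes Fra-2, followed another order of cell types. It was highest in neutrophils, at 503 CPM (430.1 to 584) and 314 CPM (267 to 368), and lowest in cancer cells, at 31.4 CPM (24.7 to 39.3) and 22.4 CPM (17.2 to 28.7). Its ratio was 2.89 (1.66 to 5.52) in CD4 cells, 3.19 (1.37 to 9.08) in γδ cells and 1.6 (1.28 to 2.0) in neutrophils, and 0.61 (0.349 to 1.05) in NK cells, where the interval holds 1. It was also the only gene of the 10 with a ratio above 1 in macrophages, at 1.35 (1.08 to 1.69). Over the alternative settings the Fosl2 ratio was 1.77 to 3.56 in γδ cells, 1.07 to 1.8 in neutrophils and 0.484 to 0.907 in NK cells, so that the latter 2 calls were lost under some, and the neutrophil ratio of Fosb was 0.263 to 0.583.

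Jun (chr4:95049034-95052222, minus strand), which can form AP-1 alone or with a Fos protein, was highest in fibroblasts, at 1796 CPM (1773 to 1819.8) and 1478 CPM (1454 to 1502). It was lowest in CD8 cells of the sensitive library, at 268 CPM (255 to 281), and in CD4 cells of the resistant library, where the CD8 interval overlapped it. In the sensitive library Jun was 464 CPM (425 to 506) in CD4, 1329 CPM (1182 to 1489) in γδ and 623 CPM (544 to 711) in NK cells. In the resistant library the same gates held 200.3 CPM (142 to 274), 597 CPM (440.0 to 791) and 299.9 CPM (241 to 369), so that all 3 gates were higher in the sensitive library, by 2.32 (1.67 to 3.29), 2.23 (1.64 to 3.09) and 2.08 (1.62 to 2.69). Macrophages again went the other way, with 341 CPM (316 to 367) in sensitive against 639 CPM (603 to 677) in resistant tumors, a ratio of 0.533 (0.485 to 0.586). Over the alternative settings the Jun ratio was 1.83 to 3.51 in CD4 and 0.852 to 2.36 in γδ cells, the lowest γδ value being that by share of cells.

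Junb (chr8:84974484-84978718, minus strand), a less active partner of Fos that restrains Jun in several settings, was highest in neutrophils at 6904 CPM (6627 to 7190.1) and 4599 CPM (4412 to 4792), and was seen in 98.5% and 87.8% of neutrophils after each cell had been thinned to 1000 UMIs. It was lowest in CD8 cells, at 1232 CPM (1205 to 1259) and 819.7 CPM (801 to 838). Its ratio was above 1 in 7 of 8 gates, and past 1.5-fold in γδ cells at 2.07 (1.71 to 2.53), CD4 cells at 1.7 (1.51 to 1.92), CD8 cells at 1.503 (1.46 to 1.55) and neutrophils at 1.501 (1.42 to 1.59). The CD8 and neutrophil values lay just past the limit, and fibroblasts just inside it at 1.496 (1.46 to 1.53). In macrophages the ratio was 0.846 (0.804 to 0.89). Jund (chr8:70698949-70700616, plus strand), the Jun protein that is present in resting cells and little induced, varied least between cell types in the resistant library, over 1.93-fold, and over 3.65-fold in the sensitive one, with γδ cells highest at 1167 CPM (1029.5 to 1318) and 908 CPM (711 to 1141). Only CD4 cells passed 1.5-fold, at 1.54 (1.29 to 1.86), and neutrophils lay on the other side at 0.671 (0.529 to 0.846), short of the limit. By share of cells after thinning Junb was 1.07 in γδ cells, 1.18 in CD8 cells and 1.12 in neutrophils, and Jund 1.17 in CD4 cells, none past 1.5-fold.

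Egr1, a zinc finger factor induced through the MAP kinase pathway, had the widest span between gates in the resistant library. Neutrophils held 1778 CPM (1639 to 1926) in the sensitive and 1576 CPM (1467 to 1691) in the resistant library, and NK cells 50.3 CPM (29.8 to 79.5) and 10.1 CPM (2.08 to 29.5), the last from 3 UMIs. Egr1 was higher in the sensitive library in CD8 cells, at 80.8 CPM (74.0 to 88.0) in sensitive against 52.1 CPM (47.5 to 57.0) in resistant tumors, a ratio of 1.55 (1.37 to 1.76). The CD4 ratio was 2.2 (1.22 to 4.36) on 151 and 12 UMIs. Over the alternative settings the ratio was 1.41 to 1.81 in CD8 and 1.53 to 3.9 in CD4 cells, so the CD8 call was lost under some. The highest CD4 value, by share of cells, rests on 15 of 196 and 1 of 51 cells. In macrophages Egr1 was 160.2 CPM (143 to 178) in sensitive against 328 CPM (302 to 355) in resistant tumors, or 0.489 (0.426 to 0.56), and cancer cells were on the same side at 0.679 (0.583 to 0.79), within 1.5-fold.

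Ier2 (chr8:84661331-84662852, minus strand), a small nuclear protein induced with Fos, differed past 1.5-fold in 2 gates and in opposite directions. CD4 cells held 477 CPM (438 to 519.7) in sensitive against 241 CPM (177 to 321) in resistant tumors, a ratio of 1.98 (1.47 to 2.72). It was 1.19 by share of cells, which ends the call, and 3.11 with a 5% mitochondrial limit. Macrophages held 224 CPM (204 to 245) in sensitive against 452 CPM (422 to 484) in resistant tumors, a ratio of 0.495 (0.441 to 0.555). Atf3 (chr1:191170296-191218039, minus strand), a stress-induced factor that pairs with Jun proteins and represses inflammatory genes in macrophages, spanned 67.1-fold between neutrophils, at 938 CPM (837 to 1047), and NK cells, at 14.0 CPM (4.54 to 32.6), of the sensitive library. Its CD4 levels were 178 CPM (154 to 205) in sensitive against 51.4 CPM (24.6 to 94.5) in resistant tumors, a ratio of 3.46 (1.84 to 7.34) on 198 and 10 UMIs, and over the settings run this ratio lay between 1.42 and 24.3. In macrophages it was 418 CPM (391 to 447) in sensitive against 853 CPM (811 to 896) in resistant tumors, a ratio of 0.49 (0.451 to 0.533). The CD8 ratio of Atf3 was 0.671 (0.544 to 0.826), inside the limit. It was 0.527 with a 5% mitochondrial limit, past 1.5-fold, and 1.14 with gates at 2 markers and a lead of 1, with 9 of 10 settings below 1. In γδ cells Atf3 had 28 and 2 UMIs and was not called.

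Dusp1 (chr17:26505590-26562128, minus strand), a phosphatase that switches off p38 and JNK and so belongs to the negative feedback of the same signals, was highest in neutrophils, at 4928 CPM (4694 to 5171) and 3292 CPM (3134 to 3456). The ratio there was 1.497 (1.4 to 1.6), just inside the limit. It was higher in the sensitive library in γδ cells, at 723 CPM (615 to 843) in sensitive against 174 CPM (95.2 to 292) in resistant tumors, a ratio of 4.15 (2.4 to 7.77), in CD4 cells at 1.91 (1.53 to 2.41) and in NK cells at 1.64 (1.31 to 2.08). By share of cells the NK value was 1.28. In macrophages it was 532 CPM (501 to 565) in sensitive against 959 CPM (915 to 1005) in resistant tumors, a ratio of 0.555 (0.514 to 0.599). For 7 of the 10 genes, all but Fosb, Junb and Jund, at least 1 gate was past 1.5-fold in each direction.

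**Figure D2:**
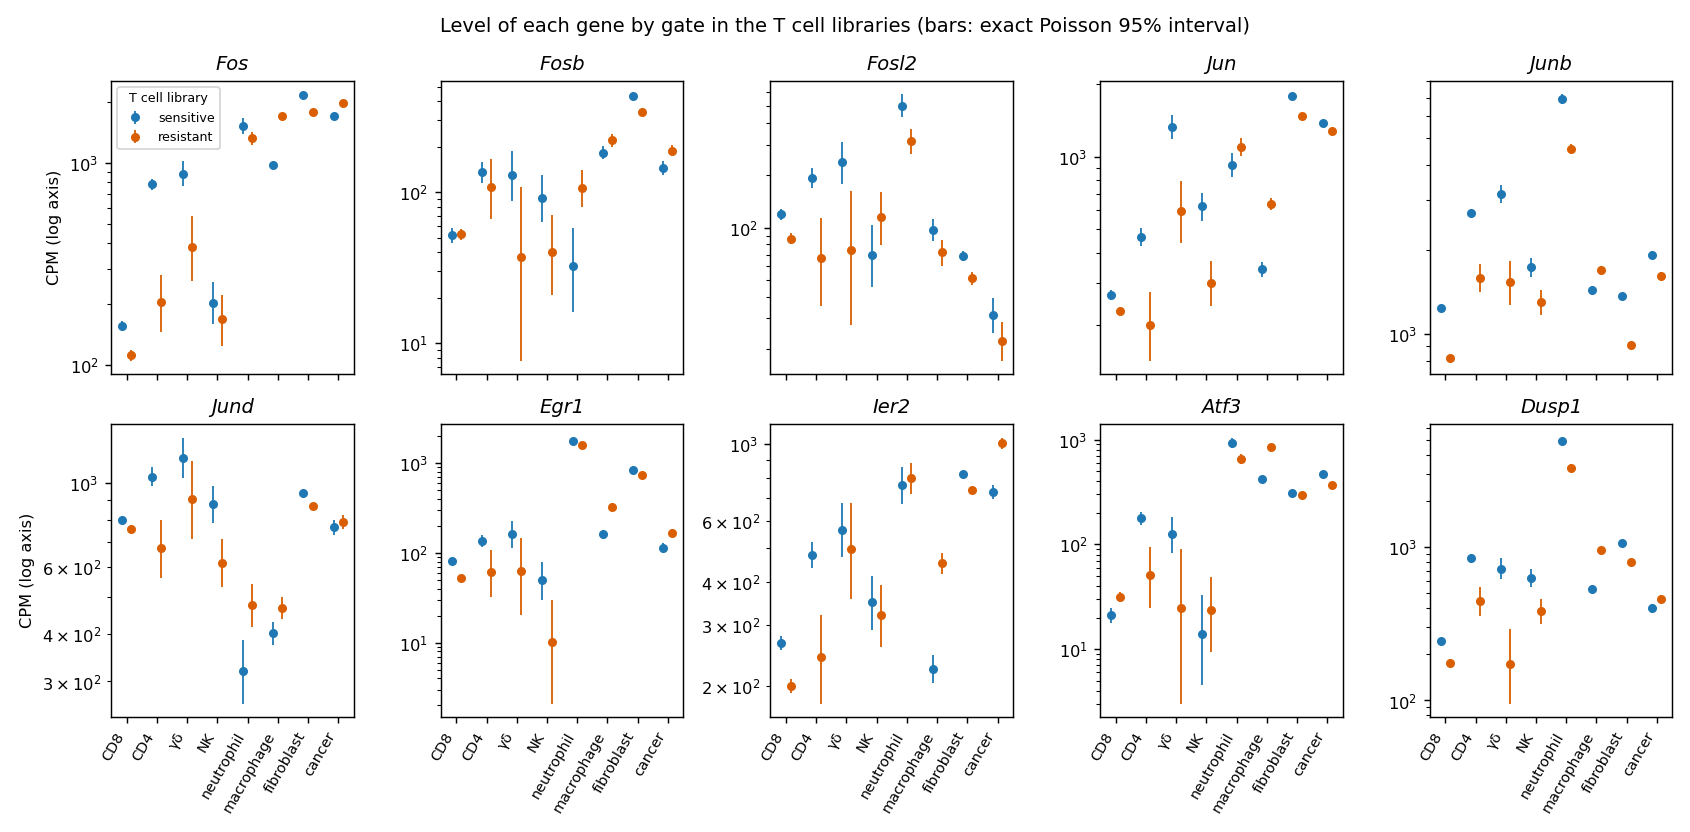
Level of each gene in CPM (log axis) by gate in the sensitive (blue) and resistant (orange) T cell library, with exact Poisson 95% intervals. Fos, Jun and Ier2 have their highest points in fibroblasts or cancer cells, Fosl2, Junb, Egr1 and Dusp1 in neutrophils, and the orange point lies above the blue one for 9 of 10 genes in macrophages.

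The CD4 gate of the sensitive library contained more cells with UMIs of Il4 or Il13, the cytokines of type 2 helper T cells, so the genes were read separately in these cells, a split made after the values had been seen. Such cells were 71 of 199, or 35.7% (29.0 to 42.8, Clopper-Pearson), in the sensitive and 4 of 51, or 7.84% (2.18 to 18.9), in the resistant library. Within the sensitive library, 4 of the 10 genes were higher in the Il4 or Il13 cells than in the remaining CD4 cells, beside 9.7% of all genes, and none was lower (13.7%). They were Egr1 at 3.27 (2.24 to 4.87), Atf3 at 3.23 (2.32 to 4.55), Fos at 2.19 (1.9 to 2.53) and Ier2 at 1.78 (1.49 to 2.14). Fos was 1086 CPM in the former and 496 CPM in the latter cells. Jun did not follow, at 0.827 (0.692 to 0.987).

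With the Il4 or Il13 cells left out, 6 of the 9 genes with 50 UMIs were higher in the sensitive than in the resistant CD4 gate, beside 14.6% of all genes, and none was lower (7.58%). Of these 6, Fosb had not been past 1.5-fold over all CD4 cells. Jun was 3.51 (2.31 to 5.56), Fos 3.17 (2.12 to 4.94), Fosl2 2.3 (1.29 to 4.47), Fosb 1.9 (1.0 to 3.98), Dusp1 1.83 (1.41 to 2.41) and Junb 1.79 (1.55 to 2.08). Jund, Ier2 and Atf3 were no longer past 1.5-fold, with Atf3 at 1.42 (0.712 to 3.15) against 3.46 over all CD4 cells. Egr1 had 37 and 7 UMIs left and was not called.

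**Figure D3:**
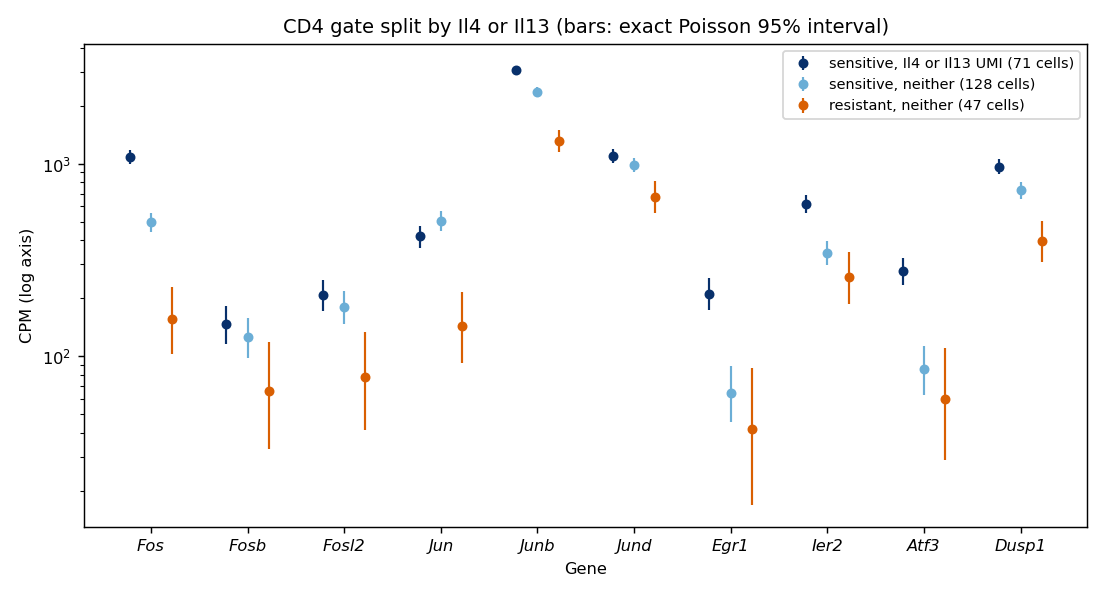
CD4 gate of the T cell libraries, CPM (log axis) of each gene in sensitive cells with an Il4 or Il13 UMI (dark blue, 71 cells), sensitive cells with neither (light blue, 128) and resistant cells with neither (orange, 47), with exact Poisson 95% intervals. The orange points are the lowest for all 10 genes, and the dark and light blue points lie farthest apart for Egr1 and Atf3.

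Other marker lists also moved with the library in the CD4 gate. Of the 8 B cell and plasma cell markers, 5 were detected in the sensitive library at 4370.3 CPM together and 1 in the resistant library at 51.4 CPM, and Ms4a1 and Pax5 were at 0 in both. Of the 8 mast cell and basophil markers, 4 were detected at 396 CPM and 3 at 30.8 CPM, and Ms4a2, Fcer1a and Gata2 were at 0 in both. Of the 8 neutrophil markers, 2 (Il1r2 and Mmp9) were detected at 617 and 247 CPM, with Csf3r and Cxcr2 at 0 in both. The B cell or mast cell lists gave 10 or more UMIs in 8 of 199 sensitive and 0 of 51 resistant cells. Without these 8 cells the count stayed at 9 of 10 higher and none lower, and Jun was 1.87 instead of 2.32. Among CD4 cells without a Foxp3 UMI (177 and 44), 9 of 10 were higher (18.6% of all genes) and none lower (10.6%), and the Foxp3+ cells of the resistant library were too few for a ratio.

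In the CD8, CD4 and γδ gates of the sensitive library a minority of cells held most Fos UMIs. In CD8 cells 131 of 1304 held 67.2% of them. In sensitive CD4 cells the 20 cells with most Fos held 59.9% of its UMIs, and the 20 with most Atf3 held 82.8% of its UMIs. The share of CD4 cells with a Fos UMI, counted after thinning, was 34.7% (28.1 to 41.8) for sensitive and 11.8% (4.44 to 23.9) for resistant tumors. Their Clopper-Pearson intervals did not overlap, but they count the cells of a library, not tumors, so this is no test. The CD8 shares, the lowest of the 8 gates, were 11.7% (10.04 to 13.6) and 8.32% (6.99 to 9.8), and the resistant CD8 and CD4 intervals overlapped. In γδ cells 7 of 61 sensitive cells held 74.1% of the Fos UMIs, and the thinned shares of Fos, 31.1% (19.9 to 44.3) and 27.8% (9.69 to 53.5), overlapped. The thinned shares of Jun in γδ cells were 42.6% (30.04 to 55.9) and 50% (26.0 to 74.0), with the resistant share the larger of the 2 although its CPM was the smaller. By share of cells 2 instead of 5 genes were past 1.5-fold in the γδ gate, which rests on 18 resistant cells.

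CD8 cells were also read by state. Among CD8 cells with UMIs of both Pdcd1 and Havcr2, inhibitory receptors of chronically stimulated T cells (218 sensitive and 300 resistant cells), 5 of 10 genes were higher in the sensitive library, beside 10.7% of all genes, and none lower (4.28%). Egr1 was 2.04 (1.58 to 2.62), Fos 1.84 (1.52 to 2.23), Dusp1 1.71 (1.47 to 1.98), Fosl2 1.64 (1.37 to 1.95) and Junb 1.55 (1.46 to 1.65). Among CD8 cells with an Mki67 or Top2a UMI, genes of dividing cells (273 sensitive and 445 resistant cells), none was higher (7.75% of all genes) or lower (3.11%), and Fos was 1.24 (1.05 to 1.47). Among the CD8 cells without either, Egr1 was higher at 1.72 (1.48 to 2.0), beside 8.38% of all genes, and Atf3 lower at 0.626 (0.481 to 0.81), beside 2.9%. These subsets were set by UMI detection and overlap, and differences between them were not tested.

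In macrophages, the lower levels were read again by complement gene detection. Among macrophages with at least 2 of C1qa, C1qb and C1qc, which mark mature tissue macrophages (167 sensitive and 132 resistant cells), 6 of 10 genes were lower, beside 4.08% of all genes, and none higher (7.76%). They were Atf3 at 0.451 (0.411 to 0.494), Ier2 at 0.452 (0.401 to 0.51), Egr1 at 0.456 (0.394 to 0.526), Jun at 0.496 (0.448 to 0.549), Fos at 0.513 (0.482 to 0.546) and Dusp1 at 0.52 (0.478 to 0.565). Among the 16 sensitive and 22 resistant macrophages below that limit none was lower (12.3% of all genes), and Fosb at 2.29 (1.34 to 3.98) and Fosl2 at 1.93 (1.14 to 3.3) were higher (12.7%). Here Fos was 1.19 (1.04 to 1.36) and Atf3 0.911 (0.735 to 1.12). Whether both kinds of macrophage differ in direction was not tested, and the second rests on few cells.

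Fos and Atf3 were also found in a smaller share of sensitive than of resistant macrophages. After thinning, Fos was found in 44.8% (37.5 to 52.3) of macrophages from sensitive and 66.2% (58.2 to 73.6) from resistant tumors, and Atf3 in 27.3% (21.0 to 34.4) and 44.2% (36.2 to 52.4). The intervals did not overlap for either gene, but they too count cells, not tumors, and are no test. No gate is known to lack these genes, so no share from free RNA could be read in one. The shares in CD8 cells, thinned to the same 1000 UMIs, were 11.7% (10.04 to 13.6) and 8.32% (6.99 to 9.8) for Fos and 1.39% (0.826 to 2.19) and 1.48% (0.942 to 2.22) for Atf3. Median depth before thinning was 11005 and 12180.0 UMIs in macrophages and 4058 and 4640.0 in CD8 cells. The fibroblast genes Col1a1 and Col3a1, which no gate used, summed to 18.3 and 7.09 CPM in macrophages, beside 18949 and 18031 CPM in fibroblasts. As ratios of shares, Fos was 0.677 and Dusp1 0.689, both within 1.5-fold. The median mitochondrial share was 3.33% and 4.83%, and 4 to 6 genes were lower under the other settings run, apart from a 2-fold call, which gave 3. Of other lineages, 6 of 8 neutrophil markers were detected in the sensitive macrophages at 384 CPM together and 7 of 8 in the resistant at 540.2 CPM, Retnlg being at 0 in both. The lymphoid markers summed to 24.6 and 49.6 CPM. Their part in the result was not tested.

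Fibroblasts as a whole had all 10 ratios above 1 and none past 1.5-fold, from 1.04 (0.99 to 1.09) for Atf3 to 1.496 (1.46 to 1.53) for Junb. Those with UMIs of both Acta2 and Tagln, genes of contractile myofibroblasts (108 sensitive and 79 resistant cells), had 6 of 10 higher in the sensitive library, beside 10.4% of all genes, and none lower (3.55%). Atf3 was 2.77 (2.27 to 3.4), Dusp1 2.48 (2.3 to 2.68), Fosb 2.0 (1.76 to 2.27), Fos 1.94 (1.84 to 2.04), Jun 1.78 (1.68 to 1.89) and Jund 1.62 (1.5 to 1.75). Among fibroblasts with Pi16, a gene of adventitial fibroblasts (686 sensitive and 557 resistant cells), Junb alone was higher at 1.52 (1.48 to 1.56), beside 6.81% of all genes, and none was lower (3.3%). In cancer cells the ratios ran from 0.679 (0.583 to 0.79) for Egr1 to 1.4 (0.988 to 1.99) for Fosl2, and by share of cells Fosl2 was 2.53, on 4 of 98 and 2 of 124 cells, and Atf3 0.735.

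Neutrophils of the T cell libraries had 2 of 10 genes higher (11.3% of all genes) and 1 lower (12%), counts near those shares. Fosl2 and Junb were higher and Fosb lower in the sensitive library, Jun was 0.842 (0.73 to 0.969) and Fos 1.15 (1.02 to 1.29). The median mitochondrial share of the gate was 1.3% for sensitive and 5.49% for resistant tumors. With a limit of 5% the count was 5 higher and 0 lower, and with 20% it was 0 higher and 1 lower, so the count changed with the limit. The shares of all genes under these limits are not given, so these counts cannot be set against genes at large. At 5% Fosb was still at 0.362, but with 35 UMIs in both libraries together it was under the 50 needed for a call. The macrophage markers summed to 248 and 371 CPM (5 and 8 of 8 detected), and C1qa and C1qc were at 0 in the sensitive library.

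The whole-tumor libraries held neutrophils in number, 291 control-labelled, 206 sensitive-labelled and 131 resistant-labelled cells, and allowed a comparison with saline there. Most of the genes differed little. Fos was 590.0 CPM (530.4 to 654) in the control-labelled, 602 CPM (525 to 687) in the sensitive-labelled and 620.0 CPM (535 to 715) in the resistant-labelled library. All 3 intervals overlapped. Against control, 3 of 10 genes were higher in the sensitive-labelled library, beside 21.6% of all genes, and none lower (9.07%). They were Atf3 at 1.77 (1.47 to 2.14), Jun at 1.6 (1.38 to 1.85) and Jund at 1.56 (1.34 to 1.82). Each of the 3 calls was lost under some setting, with lowest ratios of 1.4, 1.42 and 1.21. Against control, the resistant-labelled library had none higher (17% of all genes) and 1 lower (7.6%), Fosb at 0.357 (0.196 to 0.612). The 2 comparisons share the control library.

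Fosb and Egr1 were past 1.5-fold between sensitive-labelled and resistant-labelled neutrophils. Fosb was 147 CPM (118 to 181) in the control-labelled, 173 CPM (133 to 222) in the sensitive-labelled and 52.5 CPM (30.001 to 85.2) in the resistant-labelled library, and the resistant-labelled interval overlapped neither of the others. Sensitive over resistant it was 3.3 (1.88 to 6.12) on 63 and 16 UMIs. Egr1 was 421 CPM (371 to 476) in the control-labelled, 503 CPM (433 to 582) in the sensitive-labelled and 299 CPM (240.3 to 367) in the resistant-labelled library, a sensitive over resistant ratio of 1.69 (1.3 to 2.19). By share of cells Fosb was 1.93 and Egr1 1.41. These 2 of 10 were higher (9.68% of all genes) and none was lower (7.6%). In the T cell libraries Fosb of the neutrophil gate lay on the other side (0.303), but those libraries differ in sorting, feature list and Cell Ranger version, so the values stand side by side without a comparison.

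**Figure D4:**
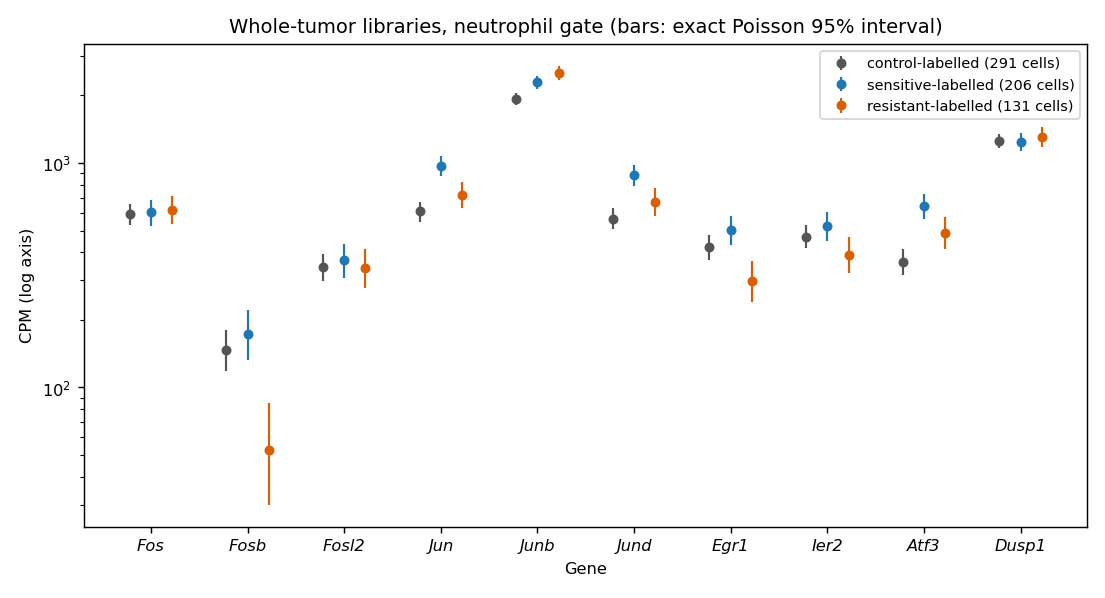
Neutrophil gate of the whole-tumor libraries, CPM (log axis) of each gene in the control-labelled (gray), sensitive-labelled (blue) and resistant-labelled (orange) library, with exact Poisson 95% intervals. Fosb of the resistant-labelled library sits below both others, and Jun, Jund and Atf3 are highest in the sensitive-labelled library.

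The heat shock genes, which like the immediate early genes respond to stress, were read in the same libraries. In whole-tumor neutrophils 6 of 7 measured heat shock genes were higher in the sensitive-labelled than in the control-labelled library, beside 21.6% of all genes, and 7 of 7 than in the resistant-labelled library, beside 9.68%. Resistant over control, Hspa8 alone of the 7 was higher (17% of all genes), Hspa1a at 0.625 (0.412 to 0.926) and Hspa1b at 0.422 (0.19 to 0.847) were lower (7.6%), and the list's median was 0.961. Hspa1b, an inducible chaperone, was 2.69 (1.85 to 3.96) over control and 6.37 (3.28 to 13.8) over resistant, where it had 10 UMIs, and Hspa8 was 3.07 (2.46 to 3.85) and 1.78 (1.41 to 2.25). The heat shock list's median ratio was 2.31 over control, and that of the 10 genes 1.18. Of the 17 other immediate early genes 11 had the UMIs to be compared, and 8 of the 11 were higher (21.6% of all genes) and none lower (9.07%), with a median ratio of 1.8. Resistant over control, which shares the control library, 4 of the 11 were higher (17%) and none lower (7.6%), with a median of 1.43. Sensitive over resistant, Gadd45b alone of the 11 was higher (9.68%) and none lower (7.6%), with a median of 1.18. The part of these lists in the Jun, Jund and Atf3 values was not tested. Macrophages (38 and 12 cells) and cancer cells (43 and 28) could be compared between the resistant- and control-labelled libraries. In macrophages Atf3 at 0.371 (0.243 to 0.573) and Jund at 0.616 (0.438 to 0.879) were lower, 2 of 8 measured genes (11.8% of all genes), and none was higher (15.9%). By share of cells after thinning Atf3 was 0.789 and Jund 0.947, neither past 1.5-fold, with Atf3 on 5 of 38 and 2 of 12 cells. Dusp1, at 1.13 by CPM, was 4.74 by share of cells. In cancer cells Fosl2 was higher at 1.57 (0.847 to 3.07) on 39 and 15 UMIs (12.3% of all genes), with an interval that holds 1, but 0.597 by the mean of single-cell CPM, and none was lower (9.39%).

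Other immediate early genes, a list of 17, were read in the same gates. In CD4 cells 9 of 14 measured were higher (17.9% of all genes) and none lower (9.57%), led by Ier3, an early survival gene, at 9.2 (4.8 to 20.2), Socs3, an inhibitor of cytokine signaling, at 3.75 (1.78 to 9.49), and Zfp36, which destabilizes cytokine mRNAs, at 3.27 (2.28 to 4.86). Myc had the lowest ratio, 1.02 (0.577 to 1.96), followed by Klf6 at 1.09 (0.893 to 1.33) and Dusp2 at 1.2 (0.899 to 1.64). In γδ cells 8 of 10 were higher (21.5% of all genes) and none lower (7.05%), with Zfp36 at 4.17 (2.77 to 6.56), Nfkbia, the inhibitor of NF-κB, at 3.4 (2.47 to 4.8) and Gadd45b at 2.5 (1.36 to 5.03). The lowest there were Ier5 at 0.805 (0.499 to 1.33), Dusp5 at 1.32 (0.835 to 2.17) and Dusp2 at 1.72 (1.14 to 2.66). In CD8 cells 9 of 17 were higher (7.26% of all genes) and 1 lower (3.29%), with Socs3 at 2.77 (2.22 to 3.46), Nr4a1 at 1.86 (1.67 to 2.07) and Zfp36 at 1.73 (1.59 to 1.88). At the other end were Egr3 at 0.566 (0.366 to 0.857), Klf4 at 0.739 (0.517 to 1.04) and Klf6 at 1.19 (1.13 to 1.26). In macrophages 15 of 16 had a ratio below 1, though Dusp2 alone was lower past 1.5-fold (4.18% of all genes), at 0.373 (0.251 to 0.545), and none was higher (7.61%). Ier3 was 0.672 (0.628 to 0.719) and Klf2 0.679 (0.606 to 0.762), and the highest were Dusp5 at 1.11 (0.845 to 1.46), Myc at 0.911 (0.552 to 1.51) and Socs3 at 0.852 (0.764 to 0.951). The median of the list was 1.82 in CD4 and 0.729 in macrophages. In NK cells 5 of 11 were higher (15.2% of all genes) and none lower (9.13%), and in neutrophils 4 of 14 (11.3%) and none (12%). In fibroblasts 4 of 16 were higher (7.65%) and 1 lower (3.09%), and in cancer cells 2 of 15 (7.23%) and 1 (3.41%).

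The list of 8 other genes of the AP-1 superfamily had fewer measured members. In CD8 cells 4 of 6 measured were higher (7.26% of all genes) and none lower (3.29%). They were Maf, a factor of T helper and exhausted cells, at 3.77 (2.9 to 4.95), Batf3 at 2.54 (1.78 to 3.64), Maff at 2.17 (1.55 to 3.04) and Batf, a partner of Jun proteins in activated T cells, at 1.73 (1.54 to 1.94), while Mafk was 1.35 (1.01 to 1.8) and Atf4 1.17 (1.06 to 1.28). In CD4 cells 1 of 3 was higher (17.9% of all genes), Batf at 4.27 (2.55 to 7.71), with Atf4 at 1.25 (0.746 to 2.21) and Maf at 0.77 (0.495 to 1.24). In macrophages none of 6 was lower (4.18% of all genes) and 1 was higher (7.61%), Maf at 2.4 (1.98 to 2.93), and the other 5 lay between 0.863 (0.537 to 1.38) for Mafk and 1.44 (0.956 to 2.19) for Batf. Heat shock genes had medians near those of all genes in lymphoid gates, 1.04 in CD8, 1.06 in γδ and 0.994 in NK cells, with 1 of 10 (7.26% of all genes), 1 of 4 (21.5%) and 0 of 6 (15.2%) measured genes higher and none lower (3.29%, 7.05% and 9.13%). In CD4 cells their median was 1.3, with 1 of 7 higher (17.9% of all genes), Hspe1 at 1.76 (0.996 to 3.4). In macrophages 1 of 9 was higher (7.61% of all genes) and 1 lower (4.18%).

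**Figure D5:**
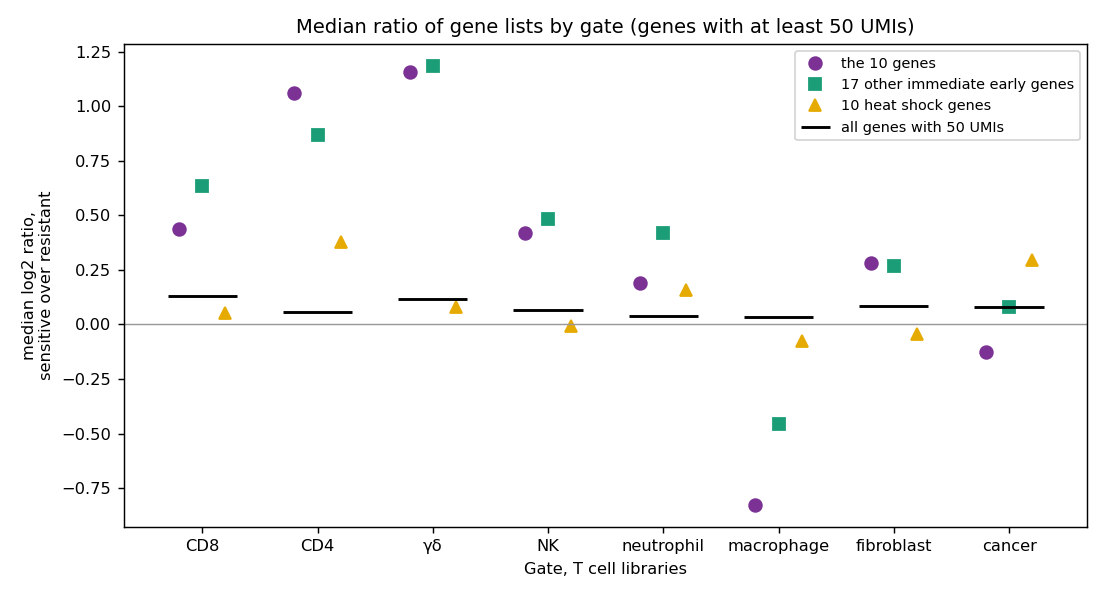
Median log2 ratio, sensitive over resistant T cell library, of the 10 genes (circles), 17 other immediate early genes (squares), 10 heat shock genes (triangles) and all genes with 50 UMIs (black lines) by gate. Circles and squares lie above the line in the T cell gates and below it in macrophages, and triangles stay near the line in lymphoid gates other than CD4.

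Over the 16 sums of 8 gates in the 2 T cell libraries, the gene most like Fos was Rhob, an immediate early small GTPase, with Pearson's r of 0.930 on log2(CPM + 10). Atf3 followed (0.909), then Plin3 (0.900), Ifngr2 (0.893) and Bsg (0.887), among 8407 genes with at least 500 UMIs. Of the 10 genes, Jun had rank 18 (0.828), Ier2 rank 28 (0.815) and Egr1 rank 77 (0.767). Fosb had rank 276 (0.659), Dusp1 rank 485 (0.603) and Junb rank 1662 (0.386), while Fosl2 had an r of -0.04 and Jund of -0.18. Of the 45 pairs among the 10 genes, 34 had a positive r, the highest being Jun with Ier2 (0.924) and the lowest Jund with Dusp1 (-0.505). These correlations describe cell types, and the sums share libraries and depth, so no p is given.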

How the data were processed

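Single-cell suspensions were captured in droplets and sequenced by the authors, who used Cell Ranger with a mm10 reference, version 6.0.0 for the T cell and 3.0.1 for the whole-tumor libraries per the file headers, and deposited UMI counts per gene and barcode, not normalized. Whole-tumor mitochondrial features were all at 0 UMIs, so no mitochondrial limit acted there, and Jund was listed a second time with 0 UMIs. The members and all gene lists, including the gates, were chosen with earlier results of these data known.

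Barcodes entered with 500 or more detected genes and a mitochondrial share of up to 10% (T cell libraries) or with 200 or more genes (whole tumor). The barcodes with the highest Scrublet score (Scanpy 1.11.5), at a rate of 0.8% per 1000 barcodes, were removed as doublets (112 sensitive and 159 resistant). No doublets were removed in the smaller whole-tumor libraries. A cell entered the lineage with most markers detected out of 8, with at least 3 detected and a lead of at least 2. Lymphoid cells were divided by receptor genes into CD8 (a Cd3 UMI and Cd8a or Cd8b1, no Cd4), CD4 (a Cd3 UMI and Cd4, no Cd8a or Cd8b1), γδ (a Cd3 UMI and Trdc, no Trac or Cd4) and NK (no Cd3d, Cd3e, Cd4, Cd8a or Cd8b1, and at least 2 NK genes). Gates by UMI detection miss cells at low depth. Some marker genes and 1 CD8 subset are not reported here.

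UMIs were summed per gate and library, as CPM with exact Poisson intervals, and ratios were taken where each library had at least 10 gate cells. A call was 1.5-fold on at least 50 UMIs, and percentages of all genes beside a count use the same rule. With 1 library per group no test was run, since cells are not replicates. Shares of cells were counted after thinning to 1000 UMIs. The rule for named genes was all 10 genes, the 3 highest and 3 lowest genes of other lists in a gate described, and the 5 genes most like Fos. Heat shock lists are given by counts, medians and only some of these genes, and the other AP-1 list of macrophages by its range. In some gates the list of other immediate early genes is given by counts. The intervals were run on simulated counts (Python 3.11.15, SciPy 1.17.1). These were drawn from the Poisson model that the intervals assume, without clustering by cell, so they checked the calculation only. Alternatives were another mitochondrial limit (5% or 20%), no doublet removal, looser and stricter gates, centered ratios, mean single-cell CPM, shares of cells, another denominator, leaving out the cells with most UMIs, no minimum and a 2-fold call, and, chosen after seeing the data, the CD4 gate without Il4 or Il13 cells or without cells with 10 UMIs of the B cell or mast cell list.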

Additional observations from a re-analysis of the deposited data

Results flagged for a closer look

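For 7 genes the ratio between the sensitive and the resistant T cell library was past 1.5-fold in opposite directions in 2 gates. Each gate had 1 library per group, so the differences between gates were not tested. Fos was 3.81 in CD4 cells and 0.573 in macrophages. Jun was 2.32 and 0.533, Egr1 2.2 and 0.489, Ier2 1.98 and 0.495, and Atf3 3.46 and 0.49 in the same 2 gates. Dusp1 was 4.15 in γδ cells and 0.555 in macrophages. Fosl2 was 3.19 in γδ cells and 0.61 in NK cells, the latter on 25 and 34 UMIs with an interval that holds 1. Some of these values fell inside 1.5-fold under another setting. By share of cells Ier2 was 1.19 in CD4 cells, and Fos was 0.677 and Dusp1 0.689 in macrophages. Without the Il4 or Il13 cells Atf3 was 1.42 in CD4 cells. The resistant CD4 values of Egr1 and Atf3 rest on 12 and 10 UMIs.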

How the results depend on the processing

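No paired analysis was possible because each group had 1 library, and for the same reason no library could be left out in turn. Of the 28 ratios past 1.5-fold in the 8 gates of the T cell libraries, 27 stayed on the same side of 1 under all settings run, and of all 80 ratios 59 did. That counts the side of 1, not the call. Some setting brought Junb (1.18) and Egr1 (1.41) in CD8 cells inside 1.5-fold. The same held for Jund (1.17), Ier2 (1.19) and Atf3 (1.42) in CD4 and Fos (1.12), Jun (0.852) and Junb (1.07) in γδ cells. Fosl2 and Dusp1 in NK cells, Fosl2 and Junb in neutrophils and Fos and Dusp1 in macrophages also fell inside it. The other called ratios stayed past it. Over the settings other than a 2-fold call and no minimum of UMIs, the count of genes higher was 6 to 10 in CD4 and 2 to 6 in γδ cells, the count lower was 4 to 6 in macrophages, and the count higher in neutrophils was 0 to 5. The γδ and NK gates and the whole-tumor gates other than neutrophils rest on few cells. The causes of the changes below were not tested, and the shares of all genes under these settings are not given.

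With a 2-fold call, the count of genes was 0 for CD8 higher, NK lower, neutrophil higher, neutrophil higher (whole tumor, sensitive- over control-labelled), cancer higher (whole tumor, resistant- over control-labelled), and 1 for NK higher, macrophage lower (whole tumor, resistant- over control-labelled), neutrophil higher (whole tumor, sensitive- over resistant-labelled), and 3 for macrophage lower, and 5 for CD4 higher. With a denominator without mitochondrial and ribosomal protein genes, the count of genes was 0 for CD8 higher, and 1 for CD8 lower, neutrophil higher, cancer lower, and 2 for neutrophil lower. With gates at 2 markers and a lead of 1, the count of genes was 1 for neutrophil higher, neutrophil higher (whole tumor, sensitive- over control-labelled). With gates at 4 markers and a lead of 3, the count of genes was 0 for NK lower, cancer higher (whole tumor, resistant- over control-labelled), and 1 for CD8 higher, cancer lower, and 2 for neutrophil lower, and 4 for NK higher. With the mean of single-cell CPM, the count of genes was 0 for neutrophil higher, cancer higher (whole tumor, resistant- over control-labelled), and 1 for NK higher, fibroblast higher, cancer higher, neutrophil higher (whole tumor, sensitive- over control-labelled), macrophage higher (whole tumor, resistant- over control-labelled), and 2 for neutrophil lower, neutrophil lower (whole tumor, resistant- over control-labelled), and 3 for cancer lower (whole tumor, resistant- over control-labelled), and 4 for macrophage lower (whole tumor, resistant- over control-labelled). The ratio of Fosl2 in the whole-tumor cancer gate was then 0.597, on the other side of 1 from its value of 1.57. With a 20% mitochondrial limit, the count of genes was 0 for NK lower, neutrophil higher, and 1 for fibroblast higher. With a 5% mitochondrial limit, the count of genes was 0 for NK lower, neutrophil lower, and 1 for CD8 higher, CD8 lower, macrophage higher, cancer higher, and 5 for neutrophil higher. Without doublet removal, the count of genes was 1 for CD8 higher, neutrophil higher, cancer lower, and 2 for neutrophil lower. Without a minimum of UMIs, the count of genes was 2 for NK lower, and 4 for NK higher, and 8 for γδ higher. With ratios divided by the median over all genes, the count of genes was 0 for CD8 higher, and 1 for CD8 lower, neutrophil higher, cancer lower, neutrophil higher (whole tumor, sensitive- over control-labelled), and 2 for neutrophil lower, neutrophil lower (whole tumor, resistant- over control-labelled). By share of cells after thinning, the count of genes was 0 for CD8 higher, NK lower, neutrophil higher, and 1 for NK higher, macrophage higher, fibroblast higher, cancer higher, neutrophil higher (whole tumor, sensitive- over control-labelled), neutrophil higher (whole tumor, sensitive- over resistant-labelled), and 2 for γδ higher, macrophage higher (whole tumor, resistant- over control-labelled), and 3 for cancer higher (whole tumor, resistant- over control-labelled). The ratio of Jun in the γδ gate was then 0.852, on the other side of 1 from its value of 2.23. Without the 1% of cells with most UMIs of a gene, the count of genes was 1 for CD8 lower, macrophage lower (whole tumor, resistant- over control-labelled). Where Fosl2 lost its NK call and Fosb its neutrophil call at a 5% mitochondrial limit (0.503 and 0.362), and Fosl2 its whole-tumor cancer call with gates at 4 markers (1.74), the ratio was still past 1.5-fold and the UMIs (49, 35 and 45) were under 50.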
